A study of Mus musculus with 58 samples.

Results

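Gene expression was measured in 8 bronchoalveolar lavage libraries of SP-A2 (1A0) mice taken 6 h after exposure to Klebsiella pneumoniae, and the 8 libraries were divided by how much neutrophil mRNA they held. Each library was scored by the mean of log2(normalized count + 1) of S100a8 and S100a9, which encode the 2 chains of calprotectin, the most abundant cytosolic protein of neutrophils. The 4 libraries with the highest score are called neutrophil-rich and the 4 with the lowest neutrophil-poor, out of 58 libraries in the whole series. The groups were thus chosen by the measured S100a8 and S100a9 values, so every difference between them is given as a description of these 8 libraries, and the test of a relation to the score was made in 24 libraries of other lines that had no part in the choice.

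All mice carried the human SP-A2 variant 1A0 as a transgene on a C57BL/6J background in which the mouse surfactant protein A gene is knocked out, so no library here is from a wild-type animal. They were 12 weeks old, 4 males and 4 females, the females with synchronized estrous cycles, and each library came from the lavage cells of 1 mouse. The cells were labelled as alveolar macrophages, the resident phagocytes of the air spaces, but were pelleted from lavage fluid without a sort. The 24 other libraries came from mice of the same age and exposure that carried no transgene (KO), the SP-A1 variant 6A4 or the SP-A2 variant 1A3, 8 of each by description and by table, and 8 libraries of the SP-A1 variant 6A2 were used beside them. For 3 of the 24 the title in the sample labels names another line: KO 8 is titled 6A4, 6A4 8 is titled 1A3 and 1A3 8 is titled 6A2. In the sex that Xist and Ddx3y show, all 24 libraries match the heading of their table and 18 match their title. The titles of KO 8, 6A4 8 and 1A3 8 name females, though the libraries held Xist counts of 1, 1 and 7 and Ddx3y counts of 113, 156 and 182. Results are also given without these 3 libraries. Titles and descriptions of the 1A0 libraries name the same line. Libraries of 1A0 are named by sex and by the number in their label, and those of the other lines by line and a running number.

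Neutrophils are short-lived granulocytes that leave the blood within hours of a bacterial challenge and enter the alveoli, where they take up and kill bacteria with stored granule proteins, proteases and an oxidant burst. Granule proteins are made mostly in the bone marrow, whereas mature neutrophils in tissue transcribe receptors, chemokines, interleukin-1 family cytokines and S100 proteins. In a bulk library of lavage cells a higher level of such a gene may come from more cells of the type or from more RNA per cell, and these cannot be told apart.

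S100a8 (chr3:90668978-90670035, GRCm38, plus strand) and S100a9 (chr3:90692632-90695721, minus strand) lie close together on chromosome 3. In the neutrophil-rich libraries male 3, male 2, male 1 and female 3, the order kept below, the normalized counts of S100a8 were 12156, 11353, 5707 and 2912. In the neutrophil-poor libraries female 2, female 1, male 4 and female 4, also the order kept below, they were 210.0, 164, 131 and 55.2. The normalized counts of S100a9 were 7529, 7004, 4115 and 1704 in the rich and 78.4, 92.9, 90.5 and 10.03 in the poor libraries. No library lay between the groups: the lowest score inside the rich group, female 3, was 11.1 and the highest outside it, female 2, was 7.02, a gap of 4.11 on the log2 scale, and neither gene was tested.

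**Figure D1:**
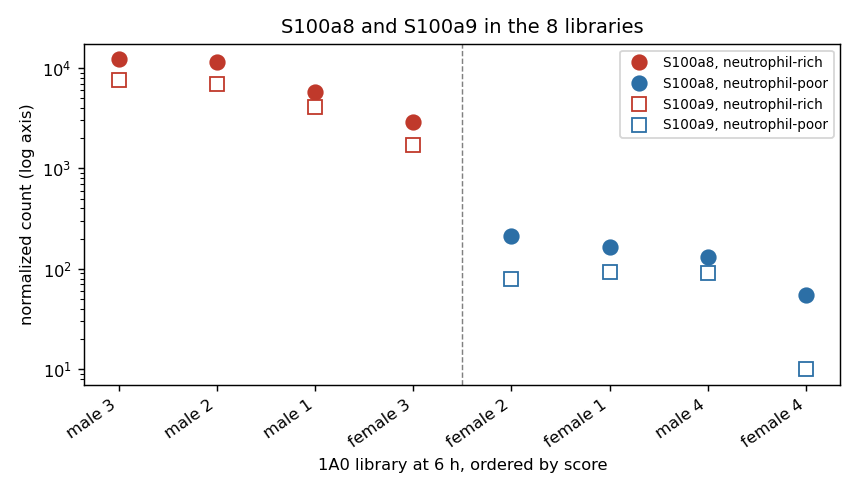
Normalized counts of S100a8 (filled circles) and S100a9 (open squares) on a log axis in each of the 8 libraries of 1A0 mice at 6 h, ordered by score from left to right, with the neutrophil-rich libraries in red and the neutrophil-poor in blue. The rich libraries held 2912 or more for S100a8 and the poor libraries 210.0 or less.

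Recovered reads ranged from 539368 to 1550635 per library. The rich libraries averaged 649186 ± 139495 (SD, n = 4) and the poor 993254 ± 427636, and this difference did not pass a two-sided exact permutation test (p = 0.2, where 4 against 4 libraries allow no p under 0.0286). Sex was not balanced: 3 of the 4 rich libraries came from males and 3 of the 4 poor libraries from females (two-sided Fisher's exact test, p = 0.486). Reads of the X-inactivation transcript Xist were found in the 4 female libraries and also in male 1 (0, 0, 337 and 1258 in the rich and 1453, 1515, 0 and 672 in the poor libraries), while male 1 also held Y-linked Ddx3y (44.5, 137, 83.7 and 0 in the rich and 0, 0, 57.9 and 0 in the poor). Male 1 therefore goes against its label in part, and results are also given without it. Female 2 stood apart in airway epithelial mRNA, with a summed normalized count of 6035 for 17 epithelial markers against 124 to 823 in the other libraries. All 35 genes of an alveolar macrophage list had a mean over the 8 libraries above the minimum of 10, led by Chil3, Lpl and Marco. Their summed normalized count ran from 7111 to 18455 per library, so that macrophage mRNA was present throughout.

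To show what the leading genes share or do not share beside their level, the promoter windows of RefSeq (GRCm38.p6, 250 bases before to 50 after a start site) were searched on both strands for TTGCNNAA, a form of the site read by C/EBP factors, which drive granulocyte genes. S100a9 and 2 of the 10 genes with the largest differences, Ngp and Retnlg, held it. Ngp held a second match on the opposite strand, 11 before the start site, which is not printed. The lines below are stretches upstream of the start site, 5′ to 3′ on the strand of the gene, with the matched letters in capitals.
S100a9 (C/EBP form, first base 236 before the start site, chr3:90695940-90695967, minus strand): gtaggctgtcTTGCTTAAgatttgggcg
Ngp (C/EBP form, 138 before the start site, chr9:110419660-110419687, plus strand): tcctggtttaTTGCCCAAacctccttgc
Retnlg (C/EBP form on the opposite strand, 246 before the start site, chr16:48872358-48872379, plus strand): agctTTCTGCAAggcattccag
A promoter window was found for 252 of the 338 genes whose rich libraries all lay above all poor libraries, and 26 of these 252 windows (10.3%) held TTGCNNAA, against 10.6% of the windows of all genes tested and 12.2% of all promoters. The C/EBP form was thus no more frequent among these genes than among all genes tested, and a match is a run of letters, not a bound site.

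Of 42782 genes listed, 6722 had a mean normalized count of 10 or more over the 8 libraries, S100a8 and S100a9 left out. For 338 of them (5.03%) every rich library lay above every poor library, and for 168 (2.5%) every rich library lay below. These counts follow from a split that was made to be wide and nothing is read from their size. Among the 338, the mean of the poor libraries was under 10 for 113, which passed the minimum only through the rich libraries, and 3 had no read in any poor library. The limma model of log2(normalized count + 1) put 145 genes (2.16%) higher and 4 (0.0595%) lower at an adjusted p under 0.05, and with sex in the model 63 and 0. Since the readout chose the groups, calls of this model, here and below, are counts for description only and not a test. Without male 1 the model gave 102 higher and 3 lower, without male 3 it gave 84 higher, and without female 4 none lower. The median log2 difference, rich minus poor, over all 6722 genes was -0.12, and it was -0.34 when the libraries were scaled to equal totals, a shift of -0.22. Under that scaling 253 genes lay above and 285 below without overlap, so that the share of higher genes among the non-overlapping ones was 47.03% in place of 66.8%. Differences below are therefore read against the median of all genes.

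The 10 largest positive differences among non-overlapping genes were those of Retnlg, Il1f9, Ngp, Hdc, Ifitm3, Ifitm1, Ly6c2, Slfn4, Stfa2l1 and Ltb, and their mean levels over the 8 libraries ran from 37.96 to 1634. All but Hdc had a mean under 10 in the poor libraries and passed the minimum only through the rich libraries. Retnlg (chr16:48872621-48874496), a secreted resistin-like protein of granulocytes, had normalized counts of 860.0, 697, 228 and 135 in the rich and 0, 0.877, 1.77 and 0 in the poor libraries, a log2 difference of 7.94 ± 0.70 (SE). Every rich library exceeded the highest poor library by far, and 2 poor libraries had no read of it. Hdc (chr2:126593667-126619299), the histidine decarboxylase that makes histamine, was the most abundant of the 10 with 2971, 2512, 5744 and 1525 in the rich and 154, 81.5, 85.7 and 0 in the poor libraries, a ratio of means of 39.7. Male 1 was highest for Hdc although only the third by score.

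Ngp (chr9:110419747-110423012), a neutrophil granule protein of the cystatin family, showed the widest spread inside the rich group, with 862, 519, 38.5 and 14.8. A single read was found in the poor libraries together, and the depth-weighted ratio was 2495 (95% interval 447 to 98631), which covers counting error only. Stfa2l1, a stefin A-like protease inhibitor whose near-identical relatives make its count uncertain, was at 109, 91.6, 56.9 and 44.3 against 0, 0, 1.77 and 0. Ly6c2, a surface antigen of monocytes and granulocytes with a near-identical copy in Ly6c1, was at 121, 133, 65.3 and 18.2 in the rich libraries and had no reads in any library in the poor group, which makes it at least 35.02-fold higher against a floor of 3 reads per library.

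Il1f9 (chr2:24186476-24193568), the interleukin-1 family cytokine IL-36 gamma, was at 584, 304.8, 569 and 171 in the rich and 5.32, 0, 0.591 and 2.51 in the poor libraries. Slfn4, a myeloid gene of the Schlafen family, averaged 148 ± 73.2 (SD, n = 4) against 2.95 ± 4.81. Ltb, the membrane-bound lymphotoxin beta chain, was near 200 in the 3 rich males (186, 213, 199 and 23.9) and far lower in female 3, which still exceeded every poor library (0, 0, 7.10 and 1.67). Ifitm3 and Ifitm1, membrane proteins that hinder virus entry, were at 211, 226, 649.8 and 79.6 and 334, 353, 137 and 198 in the rich libraries and at 6.65, 0, 5.32 and 0 and 22.6, 0, 1.77 and 1.25 in the poor. Ifitm genes are close copies, so that reads may be shared among them. Sex as a covariate left all 10 differences positive, between 4.40 for Ltb and 7.16 for Retnlg on the log2 scale.

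**Figure D2:**
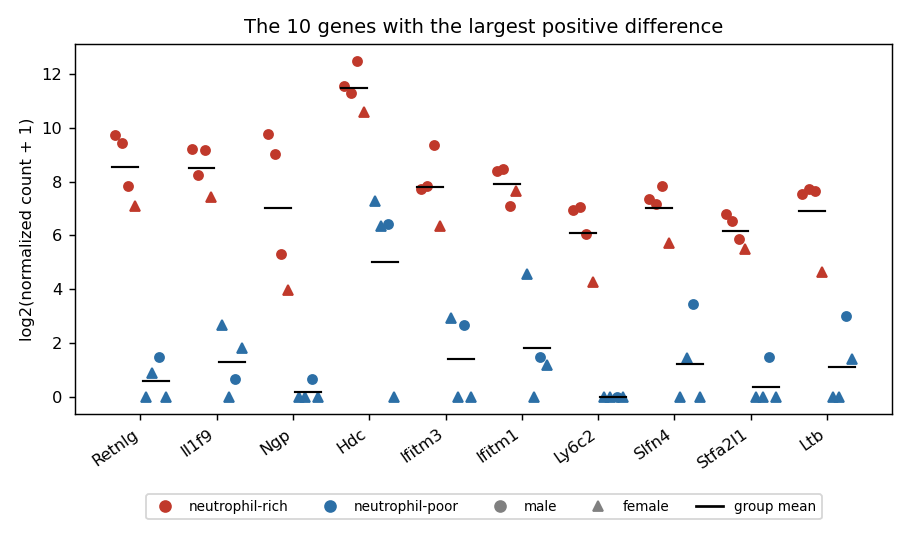
Log2(normalized count + 1) of the 10 genes with the largest positive difference in each library, neutrophil-rich in red and neutrophil-poor in blue, circles for males, triangles for females and a bar for the group mean. Ly6c2 had no read in the poor libraries, and Ngp in the rich libraries ran from 14.8 to 862 normalized counts.

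Genes that mark neutrophils made up 3 of the 4 lists with the highest medians, beside red cell genes. Counts without overlap, in this and the following lists, are to be read beside 5.03% above and 2.5% below over all 6722 genes. A gene whose poor libraries averaged under 10 passed the minimum only through the rich libraries. This held for Ngp, Mmp9, Ly6g, Csf3r, G0s2, Csf1, Egln3 and Plac8, among others. Among granule proteins, 8 of 16 listed genes passed the minimum, 5 lay above without overlap, none below, and the median log2 difference was 3.07. Hp, haptoglobin stored in granules, was at 573, 611, 797 and 221 against 37.2, 41.2, 38.4 and 6.69. Mmp8, the neutrophil collagenase, was at 619, 459, 380.1 and 152 against 43.9, 23.7, 23.7 and 33.9. Mmp9, gelatinase B of tertiary granules, was at 230.3, 316, 50.2 and 165 in the rich and 6.65, 4.38, 1.77 and 0 in the poor libraries, a ratio of means of 59.5. For these 3 genes the groups were well apart.

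Granule genes of different stages did not behave alike. The primary granule genes Mpo, Elane, Prtn3 and Ctsg, transcribed in promyelocytes, had no read in any of the 8 libraries. Ltf, lactoferrin of secondary granules and also a product of airway glands, was at 34.9, 41.5, 139 and 32.97 in the rich and 641, 51.7, 7.10 and 2.93 in the poor libraries, highest in female 2, the library rich in epithelial mRNA. Camp, the cathelicidin of secondary granules, had reads in male 3 and male 2 alone. Lcn2, lipocalin 2, which binds bacterial siderophores, did not overlap (547, 332, 246 and 96.6 against 65.1, 55.2, 85.1 and 34.3), and Anxa1, annexin A1, was the lowest of the list at -1.70 with overlapping libraries.

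Of 20 receptors and surface proteins of neutrophils, 19 passed the minimum, 10 lay above without overlap and none below, with a median of 2.56. Il1r2, the decoy receptor for interleukin-1, was at 517, 346, 1392 and 569.6 against 35.9, 21.04, 10.6 and 1.25, the largest difference of the list (5.67 ± 0.63 on the log2 scale). Cxcr2, the receptor for CXC chemokines that draws neutrophils into tissue, was at 454, 265, 285 and 215 against 33.2, 16.7, 2.37 and 4.18. Ly6g, the antigen by which mouse neutrophils are usually identified, was at 81.98, 52.9, 35.2 and 11.4 in the rich libraries with no reads in any library of the poor group, at least 18.8-fold higher.

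Il1r2 followed the order of the score less closely than Ly6g, being highest in male 1. Trem1, an amplifying receptor of myeloid cells, was even across the rich libraries (548, 515, 556 and 400.2) and low in the poor (50.5, 125, 73.3 and 50.99). Itgam, the CD11b integrin chain, averaged 268 ± 205 against 15.9 ± 6.53, and Csf3r, the receptor of granulocyte colony-stimulating factor, 44.5 ± 25.5 against 4.90 ± 4.66. Csf2rb and Itgb2, which alveolar macrophages also express, had differences of 0.11 and -0.084 with overlapping libraries, and under equal library totals the first turned to -0.12.

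Among 16 further neutrophil genes 12 passed the minimum, 10 lay above without overlap and the median was 5.04, the highest of all lists. They included Retnlg, Hdc, Il1f9, Slfn4 and Stfa2l1 described above, of which all but Hdc passed the minimum only through the rich libraries. Mxd1, a MYC antagonist of mature granulocytes, was at 1046, 701, 769 and 350.2 against 71.8, 52.6, 45.5 and 12.96. G0s2, an inhibitor of the fat-cleaving enzyme ATGL, was at 46.2, 41.5, 77.03 and 26.2 against 7.97, 15.8, 6.50 and 1.25. The exception with the lowest value was Msrb1, a methionine sulfoxide reductase, at -0.17.

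Subunits of the phagocyte NADPH oxidase, shared by neutrophils and macrophages, were nearer to the rest of the genes. All 6 passed the minimum, the median was 0.65, and Rac2, the small GTPase of the complex, alone lay above without overlap (81.98, 64.4, 154 and 57.99 against 47.8, 13.2, 18.3 and 30.5). Cybb, its catalytic subunit, was at 1654 ± 84.5 (SD, n = 4) in the rich and 2234 ± 752 in the poor libraries. Of the remaining S100 genes 6 of 11 passed the minimum, with a median of -0.04 that was positive in some alternatives and negative in others. S100a6, a calcium-binding protein of many cell types, lay above without overlap at 1666, 1344, 1137 and 536 against 170.1, 163, 138 and 116, whereas S100a11 and S100a13 overlapped.

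**Figure D3:**
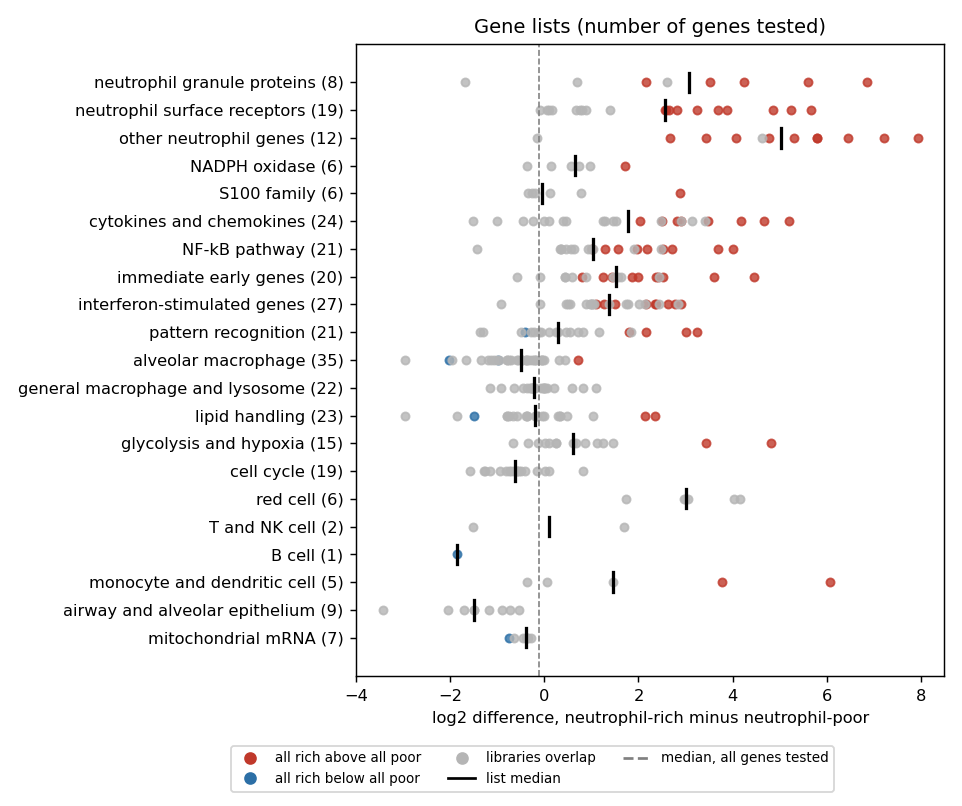
Log2 differences, neutrophil-rich minus neutrophil-poor, of the genes of each list, 1 point per gene that passed the minimum, red where every rich library lay above every poor library, blue where every one lay below and grey where they overlapped. Black bars are list medians and the dashed line is the median of all genes, -0.12. Neutrophil lists reach to 7.94, and the alveolar macrophage list lies mostly left of 0.

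Inflammatory mediators were higher in the rich libraries in part. Of 32 cytokines, chemokines and related genes 24 passed the minimum, 8 lay above without overlap (Il1b, Tnf, Csf1, Cxcl2, Cxcl10, Ccl3, Ccl4 and Irg1), none below, and the median was 1.78. Il1b (chr2:129364570-129371139), the precursor of interleukin-1 beta, was at 4380.1, 3367, 3247 and 1084 against 99.7, 288, 658 and 171. Irg1, which makes the antibacterial metabolite itaconate, was at 890.5, 667, 996 and 255 against 33.2, 65.8, 46.7 and 12.1, with a difference of 4.17 ± 0.48. Cxcl2, a ligand of Cxcr2, was at 1532, 1305, 2837 and 1353 against 167, 821, 421 and 52.2, so that the highest poor library reached 821 and the lowest rich library 1305.

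Ccl4, a CC chemokine of activated macrophages, was highest in male 1 (157, 229, 739 and 73.9 in the rich and 14.6, 26.3, 10.1 and 0 in the poor libraries). Csf1, the macrophage growth factor, had 2 reads in the poor libraries and 96.8, 74.4, 65.3 and 9.10 in the rich. Tnf was at 148, 146, 107 and 47.8 against 33.2, 15.8, 28.4 and 22.99. Ccl6, which alveolar macrophages make in large amounts and which was the most abundant of the list, was at 4877 ± 816 and 5038 ± 1403 with a difference of -0.011. Ccl22, a macrophage and dendritic cell chemokine, had the lowest value of the list (-1.51) at levels of 0 to 23.9 in the rich and 7.01 to 25.5 in the poor libraries. Ptgs2, the inducible cyclooxygenase, was high in male 1 alone (15.7, 0, 289.7 and 0 in the rich and 0, 0, 0.591 and 0 in the poor libraries).

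The NF-kB pathway list had 21 of 23 genes above the minimum, 9 of them above without overlap and a median of 1.04. Ier3, an immediate early survival gene, was at 1489.7, 1997, 2931 and 1049 against 117, 190.3, 147 and 38.9. Nfkbia, the inhibitor that NF-kB itself induces, was the most abundant at 3478, 2295, 2584 and 2298 against 719, 1596, 996 and 531. Nfkbiz, an atypical inhibitor that acts on a subset of targets, was at 132, 197, 322 and 55.7 against 14.6, 9.64, 8.87 and 9.61. Ikbkg, the scaffold of the kinase complex, was the lowest at -1.43, with overlapping libraries.

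Of 23 immediate early genes 20 passed the minimum, 10 lay above without overlap and the median was 1.52. Egr1, a zinc finger factor induced within minutes of stimulation, was at 424, 436, 943 and 321 against 51.8, 4.38, 40.2 and 19.2. Junb, an AP-1 subunit, was at 1784, 1405, 1440.2 and 1001 against 166, 379.6, 416 and 194, and Klf6, another zinc finger factor, at 787, 713, 978 and 708 against 403, 569.9, 513 and 364. Fos did not follow the split: 33.1, 34.3, 338 and 29.6 against 71.8, 31.6, 40.8 and 36.4, with only male 1 high, and Klf4 was lower on average in the rich libraries (-0.58) with overlap.

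Interferon-stimulated genes, the antiviral program downstream of interferon receptors, had 27 of 43 members above the minimum, 9 above without overlap, none below and a median of 1.37. Isg15, a ubiquitin-like modifier, was at 332, 268, 504 and 193 against 53.2, 159, 50.9 and 28.001. Rsad2, the antiviral enzyme viperin, was at 331, 248, 216 and 57.99 against 34.6, 27.2, 24.2 and 28.001, and Oasl2, an oligoadenylate synthetase-like protein, at 97.7, 74.4, 87.1 and 59.1 against 46.5, 23.7, 9.46 and 0. Gbp2 and Tap1 were highest in male 1. Gbp2, a guanylate-binding protein, was at 47.97, 51.5, 298 and 12.5 and Tap1, a peptide transporter of antigen presentation, at 88.96, 40.1, 730.2 and 25.01 in the rich libraries, against 15.9, 13.2, 1.18 and 22.6 and 45.2, 30.7, 4.73 and 21.7 in the poor. The same library was highest for the T and NK cell markers, 228 in summed normalized counts against 11.8 to 47.1 in the other 7, and the part of this in the interferon genes was not tested.

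Pattern recognition genes were closer to the rest, with 21 of 26 above the minimum, 4 above and 1 below without overlap and a median of 0.30. The 1 gene below is near the 2.5% below of all genes. Cd14, the lipopolysaccharide co-receptor, was at 287, 238, 276 and 87.5 against 10.6, 67.5, 29.6 and 15.9. Nlrp3, the inflammasome sensor that NF-kB primes, was at 227, 176, 323 and 94.4 against 43.9, 22.8, 29.6 and 3.76. Tlr2, the receptor for bacterial lipoproteins, was the gene below, at 93.3, 117, 82.1 and 114 against 133, 165, 118 and 121. Aim2, a cytosolic DNA sensor, was the most abundant of the list and overlapped (0.54).

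Genes of resident alveolar macrophages lay mostly below the median of all genes. All 35 passed the minimum, and their median was -0.50, against -0.12 for all genes. Of the 35 differences 32 were negative, while over all 6722 genes 2918 were positive. Without overlap 1 lay above and 2 below, which is near the 5.03% above and 2.5% below of all genes. Chil3, the chitinase-like protein Ym1, was at 3716, 3335, 1643 and 2075 against 2548, 2872, 3099 and 3849, and Lpl, lipoprotein lipase, at 3719, 2384, 1068 and 1693 against 1354, 2382, 2884 and 4846. Both overlapped, and male 1 was the lowest library for each. Pparg, the nuclear receptor that sets alveolar macrophage identity, had the lowest value of the list at -2.97 ± 0.95, with 11.3, 1.43, 0 and 20.5 in the rich and 49.2, 76.3, 32.5 and 17.6 in the poor libraries, where female 3 exceeded female 4.

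Cidec, a lipid droplet protein, and Krt19, a keratin, were the 2 genes below, at 39.2 ± 25.3 against 102 ± 19.8 and 26.9 ± 3.71 against 56.8 ± 21.1 (SD, n = 4). Bhlhe40, a transcription factor also used by activated cells, was the gene above (179.7, 165, 172 and 142 against 136, 132, 62.7 and 89.4). The summed level of the list ran from 7111 in male 1 to 16521 in the rich libraries and from 11975 to 18455 in the poor, so that the groups overlapped. Without male 1 the difference of Chil3 was -0.050 and that of Pparg -2.19. The list median ran from -0.72 to -0.39 over the alternatives.

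General macrophage and lysosomal genes were close to the median of all genes: 22 of 26 passed the minimum, none was apart in either direction, and the median of -0.22 lay between -0.42 and 0.13 over the alternatives. Ctsd, cathepsin D, was at 2095 ± 223 against 2596 ± 508 and Cd63, a tetraspanin of late endosomes, at 2181 ± 606 against 1222 ± 321. Lipid-handling genes had a median of -0.21, with 23 of 23 above the minimum. In that list the triglyceride-forming enzymes Dgat2 (182, 110.2, 102 and 47.8 against 11.96, 34.2, 23.1 and 12.96) and Dgat1 (58.4, 109, 573 and 122 against 47.8, 20.2, 33.1 and 32.6) lay above, and Fasn, fatty acid synthase, below (27.9, 18.6, 3.35 and 22.7 against 50.5, 40.3, 32.5 and 51.8). These 2 of 23 above (8.7%) and 1 of 23 below (4.3%) are near the 5.03% and 2.5% of all genes.

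In the glycolysis and hypoxia list 15 of 19 genes passed the minimum and the median was 0.61. Egln3, an oxygen-sensing prolyl hydroxylase that hypoxia induces, was at 99.4, 127, 66.99 and 29.6 against 0, 9.64, 2.96 and 0, and the neutrophil glucose transporter gene Slc2a3 also lay above. Pkm, Hk2 and Ldha, glycolytic enzymes, overlapped with differences of 0.68, 0.10 and -0.67. Cell cycle genes were lower on average (median -0.62, 19 of 35 above the minimum) with no gene apart in either direction: Top2a was at 105 ± 54.3 against 164 ± 65.6 and Tubb5 at 166 ± 38.2 against 254 ± 50.03. No gene apart among 19 is near the 5.03% above and 2.5% below of all genes. Mitochondrially encoded mRNA had a median of -0.38 over 7 of 13 genes, and mt-Nd4 lay below (781, 1205, 1484 and 1469 against 1709, 1576, 1750.3 and 3432).

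Markers of other cells moved with the split to different degrees, and their part in the values above was not tested. Red cell genes had a median of 3.02, the third highest, yet all 6 that passed the minimum overlapped. Their summed level was 1137 to 13086 in the rich and 21.3 to 2364 in the poor libraries, with Hbb-bs at 2596, 4825, 350.0 and 600.3 against 1095, 233, 322 and 7.10. Hba-a1 and Hba-a2 are near-identical, so their separate counts are uncertain. Of 14 monocyte and dendritic cell genes 5 passed the minimum, and Ly6c2 and Plac8, which neutrophils also express, lay above (Plac8 at 113, 80.1, 53.6 and 17.1 against 3.99, 5.26, 7.10 and 0), while Ccr7, of migrating dendritic cells, was at -0.37 with overlap.

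T and NK cell genes were scarce. The T cell genes Cd3g and Cd8a had no read in any library, 2 of 15 genes passed the minimum, and Lck, a T cell kinase, was at 20.1, 17.2, 136 and 4.55 against 14.6, 17.5, 2.96 and 1.25. Of 10 B cell genes 7 had no read, among them Cd79a and Ms4a1, and the one that passed the minimum, Cd22, lay below (13.1, 2.86, 28.5 and 35.2 against 59.8, 51.7, 50.9 and 58.1), whereas those 7 genes were at 0 in the same libraries. No gene of the eosinophil, basophil and mast cell list passed the minimum, and 6 of 8 had no read. Epithelial genes had a median of -1.49 over 9 of 17 genes, all overlapping, and they turned on female 2: Bpifa1, an airway secretory protein, was at 30.5, 18.6, 21.8 and 234 against 2743, 55.2, 132 and 46.8, and Scgb1a1, the club cell secretory protein, at 181, 269, 45.2 and 317 against 1043, 195, 231 and 67.7.

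The 10 largest negative differences among non-overlapping genes belonged to Atl3, Lrrc71, Ganc, Dcaf17, Dis3l2, Gipc1, Irgq, Vti1a, Atp1b1 and Cdk5rap3. All were scarce, with means between 11.2 and 21.9 over the 8 libraries, so that each rests on few reads in the shallower libraries. Atl3 (chr19:7494040-7539674), atlastin 3 of the endoplasmic reticulum, was at 1.74, 0, 0 and 0 in the rich and 42.5, 48.2, 21.9 and 15.9 in the poor libraries and was 1 of the 4 genes the model put lower. It had 2 reads in the rich libraries together, and the depth-weighted ratio, poor over rich, was 45.02 (95% interval 12.3 to 375).

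Gipc1, a PDZ adaptor of membrane traffic, was at 13.95, 0, 1.67 and 1.14 against 41.2, 28.9, 41.4 and 17.6, and Vti1a, a SNARE of the Golgi, at 2.62, 0, 0 and 6.82 against 22.6, 23.7, 18.3 and 15.5. Atp1b1, the beta 1 subunit of the sodium pump, and Lrrc71, a leucine-rich repeat protein, had no read in the rich libraries. Among the poor libraries most of their signal was in female 2 (166, 1.75, 0.591 and 7.10 for Atp1b1 and 95.7, 10.5, 11.8 and 4.60 for Lrrc71), the library with the epithelial mRNA. Without female 2 both had means under 10 and were not tested.

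To test whether genes follow the score in mice that had no part in the split, the 24 libraries of KO, 6A4 and 1A3 mice at 6 h were used, with 8 libraries per line and 1616156 to 3218721 counts each. The score, here on log2(CPM + 1), ran from 7.43 to 11.7 in KO, from 4.63 to 11.1 in 6A4 and from 3.44 to 11.3 in 1A3. A single slope per gene on the score was fitted with edgeR's quasi-likelihood model with line as a covariate, and adjusted over the 7999 genes tested. The slope passed for 162 genes that rose with the score (2.03%) and for 12 that fell (0.15%). It is given in log2 CPM per unit of score, so that 1 means that a doubling of S100a8 and S100a9 went with a doubling of the gene.

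Of the 338 genes above without overlap in 1A0, 280 were tested in these lines and 109 of them (38.9%) rose, none fell and 257 (91.8%) had a positive slope. The 109 became 89 without the 3 libraries whose labels disagree and 102 with line by title. Among all 6151 genes tested in both data sets 2.54% rose and 49.3% had a positive slope. The 109 genes were 69.9% of the 156 rising genes that were also tested in 1A0. Of the 168 genes below without overlap, 166 were tested and 2 (1.2%) fell, Sar1b, a GTPase of vesicle export from the endoplasmic reticulum, and Cnpy2, a chaperone of the same compartment. Without the 3 libraries whose labels disagree neither passed (edgeR adjusted p = 0.0556 and 0.162), and Cnpy2 was also lost with line by title and without KO 8, 6A4 4, 6A4 5 or 1A3 3. None of the 166 rose, and 99 (59.6%) had a negative slope, against 0.146% falling and 50.7% negative among all genes tested in both.

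**Figure D4:**
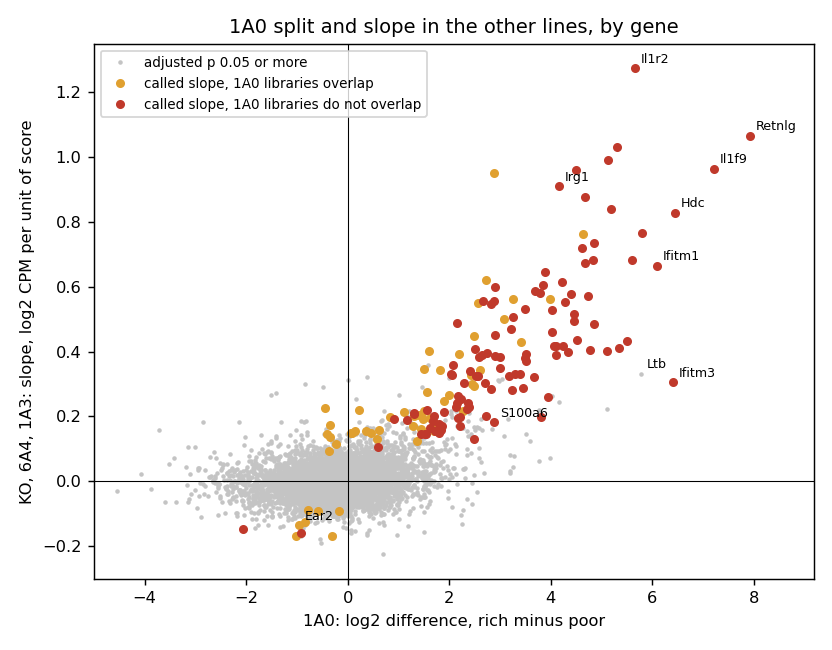
Each point is 1 of 6151 genes tested in both data sets, with the 1A0 log2 difference, rich minus poor, on the x axis and the slope on the S100a8 and S100a9 score over 24 KO, 6A4 and 1A3 libraries on the y axis, in log2 CPM per unit of score. Coloured points passed the slope test at an adjusted p under 0.05, red where the 1A0 libraries did not overlap. The 109 red points above 0 all lie at positive 1A0 differences, and the 2 red points below 0 are Sar1b and Cnpy2.

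Several neutrophil genes were among those with steep slopes. Il1r2, the steepest of the genes that passed, rose by 1.27 ± 0.063 (SE) per unit of score (edgeR adjusted p = 1.64e-14), with a lowest, median and highest CPM of 0.757, 61.9 and 699 over the 24 libraries. Retnlg rose by 1.07 ± 0.076 (edgeR adjusted p = 6.78e-11) from CPM values of 0, 51.4 and 509. The slope of Il1r2 was above 1, and that of Retnlg lay within 1 SE of 1. Hdc (0.83), Cxcr2 (0.73), Il1f9 (0.96) and Mmp9 (0.68) also passed, with edgeR adjusted p between 1.12e-10 and 5.84e-08. H2-Q10, a class I histocompatibility gene outside the lists that was too low to be tested in 1A0 and is named after its value was seen, had the second steepest slope of all that passed (1.13 ± 0.083, edgeR adjusted p = 1.12e-10).

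By list, 9 of 10 tested genes of the further neutrophil list rose, 9 of 18 receptors and 4 of 8 granule genes (Lcn2, Mmp9, Hp and Pglyrp1), and none fell. Here and in the lists below, counts are to be read beside 2.03% rising and 0.15% falling over all 7999 genes tested. All 9 of the further list held in every alternative, while Pglyrp1 was lost without KO 8, 1A3 3 or 1A3 5, and of the receptors Itgam was lost in 21 of 30 alternatives and Clec4e in 10 of 31. The exceptions among genes apart in 1A0 included Mmp8, whose slope was 0.14 ± 0.06 (edgeR adjusted p = 0.319). Ngp, Stfa2l1, Ly6c2 and Ly6g were under the minimum CPM of 10 in these lines and were not tested. Rac2 and the other 5 oxidase subunits did not pass, and S100a6 rose by 0.18 ± 0.037 (edgeR adjusted p = 0.00283).

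Of the mediators 11 of 23 rose, and 8 of the 11 did so in every alternative (Ccl9 was lost in 10 of 31, Il1rn in 7 and Cxcl3 in 2). Irg1 rose by 0.91 ± 0.062 (edgeR adjusted p = 4.31e-11) from CPM values of 1.38, 63.5 and 699.7, and Il1b by 0.53 ± 0.063 (edgeR adjusted p = 9.42e-07) from 48.2, 397 and 2130.3. Ccl4, Csf1, Ccl3 and Cxcl2 had slopes of 0.88, 0.84, 0.60 and 0.55. Ptgs2, with 1 high library in 1A0, rose by 0.95 ± 0.10 (edgeR adjusted p = 1.32e-07). Tnf and Cxcl10, apart in 1A0, had slopes of 0.22 and 0.018 that did not pass (edgeR adjusted p = 0.201 and 0.975).

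The NF-kB list had 8 of 21 genes rising, led by Nfkbiz (0.59) and Ier3 (0.53), and the immediate early list 7 of 21, led by Egr1 (0.49) and Dusp1 (0.41), a phosphatase of MAP kinases. In the first, 6 of 8 held in every alternative (Icam1 was lost in 17 of 31 and Traf1 in 3 of 30), and in the second 5 of 7 (Dusp2 was lost in 10 of 30 and Btg2 in 3 of 31). Pattern recognition had 4 of 20, Cd14, Irak2, Nlrp3 and Casp4, the same 4 genes that lay above without overlap in 1A0. Casp4, an inflammatory caspase, was near the threshold, and its call was lost in 14 of 30 alternatives, while Irak2 was lost without the 3 libraries whose labels disagree. Of lipid-handling genes Dgat1 rose (0.24 ± 0.037, edgeR adjusted p = 6.88e-05) and Dgat2 did not pass (edgeR adjusted p = 0.185). Slc2a1 and Pfkfb3 were the 2 of 13 glycolysis and hypoxia genes that rose, Pfkfb3 not without those 3 libraries.

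Interferon-stimulated genes were counted by a different measure in each data set. None of 24 tested in the other lines passed in either direction by edgeR or DESeq2, and their median slope was 0.019. Over all genes tested 2.03% rose and 0.15% fell by edgeR, so that no call among 24 is near that share. At an unadjusted p under 0.05 there were 4 of the 24, beside 11.4% of all genes tested. In 1A0, 9 of 27 lay above without overlap, and the difference between the data sets was not tested. Isg15 had a slope of 0.15 ± 0.068 (edgeR adjusted p = 0.377) with its highest levels in KO libraries. Ifitm3 rose by 0.30 ± 0.075 (edgeR adjusted p = 0.0189), a call that was lost in 6 of 30 alternatives (without KO 8, 6A4 3, 1A3 3 or 1A3 5, with line by title and without the 3 libraries whose labels disagree). Ifitm1 rose by 0.67 ± 0.06 (edgeR adjusted p = 7.28e-09) and passed in every alternative, and Ifitm2, outside the lists and named after its value was seen, by 0.33 ± 0.042 (edgeR adjusted p = 3.81e-06). Ltb, among the 10 largest in 1A0, had a slope of 0.33 ± 0.12 that did not pass (edgeR adjusted p = 0.214).

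Of 35 alveolar macrophage genes 1 fell, Ear2, an eosinophil-associated ribonuclease with a close copy in Ear1, with a slope of -0.14 ± 0.037 (edgeR adjusted p = 0.0461), and none rose. This call was lost in 19 of 31 alternatives, all but 1 of which left out libraries, with an edgeR adjusted p of up to 0.232. At an unadjusted p under 0.05 there were 8 of the 35, a share to be read against 11.4% of all genes tested. DESeq2 called 2 genes of the list, Ear2 and, rising with the score, Slc7a2, a cationic amino acid transporter. Chil3 and Pparg had slopes of 0.038 and -0.083 that did not pass (edgeR adjusted p = 0.874 and 0.434). None of 24 general macrophage, 31 cell cycle, 6 red cell and 15 epithelial genes passed in either direction by edgeR or DESeq2, and 1, 4, 0 and 1 had an unadjusted p under 0.05. As 2.03% rose and 0.15% fell over all 7999 genes by edgeR, no call in lists of this size is near the share of all genes. None of the 10 genes with the largest negative 1A0 difference fell in the other lines: Atl3 had a slope of -0.031 ± 0.042 (edgeR adjusted p = 0.842).

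**Figure D5:**
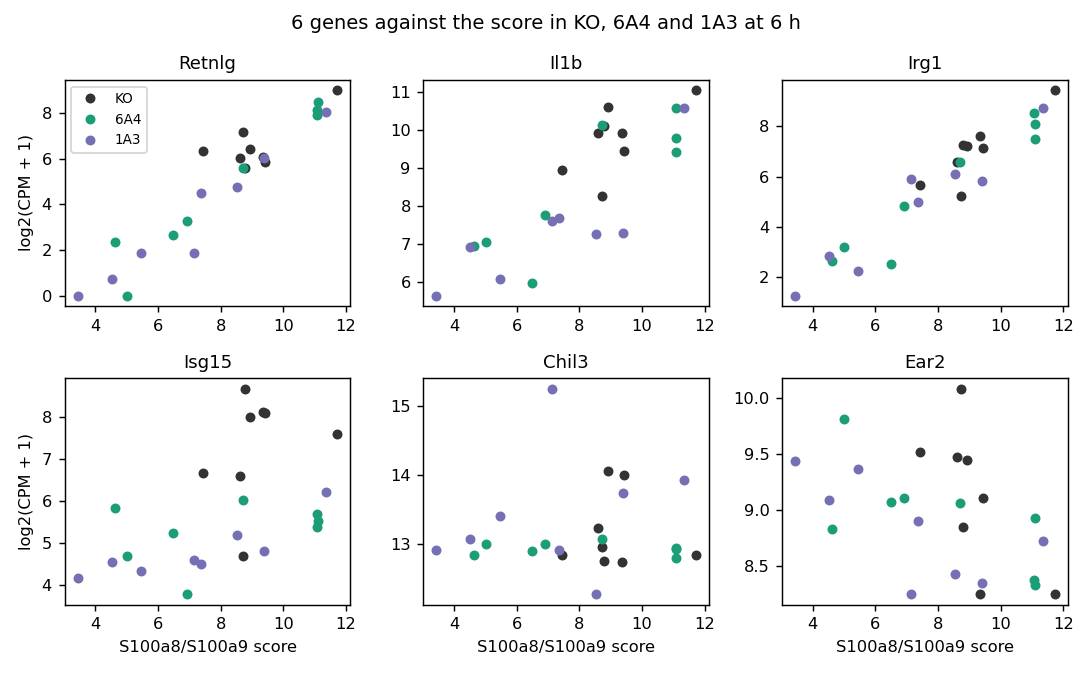
Log2(CPM + 1) of 6 genes against the S100a8 and S100a9 score, 1 point for each of 24 libraries of KO (black), 6A4 (green) and 1A3 (violet) mice at 6 h. Retnlg, Il1b and Irg1 rise with the score, whereas Isg15 and Chil3 do not pass the test and Ear2 falls by 0.14 per unit of score.

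With each line fitted alone by its table, 79 genes rose and 26 fell in KO, 74 and 3 in 6A4 and 36 and 0 in 1A3. The count in KO rests on KO 8, whose score of 11.7 was far above the next (9.42): without it 20 rose and 6 fell. By title, 110 rose and 2 fell in 6A4 and 36 and 0 in 1A3. No gene passed a test of a difference in slope between the 3 lines (edgeR, 7999 genes, smallest adjusted p = 0.157, or 0.0592 with line by title, 881 genes at an unadjusted p under 0.05). In 8 libraries of mice with the SP-A1 variant 6A2 at 6 h, a separate table, 2 genes rose and none fell. The 6A2 table listed 12182 genes and those of the other lines 17216. Each fit applied the minimum CPM within its own libraries. The counts of single lines thus rest on different sets of genes and are not compared between lines. Slopes of Il1r2 in KO, 6A4, 1A3 and 6A2 were 1.08, 1.47, 1.12 and 0.85, and those of Retnlg 0.66, 1.17, 1.19 and 0.61. Without KO 8 the slopes in KO were 1.395 for Il1r2 and -0.23 for Retnlg.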

How the data were processed

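Lavage cells of single mice were profiled by 3′ mRNA sequencing (QuantSeq), which counts tags at transcript ends. For the 1A0 mice the authors deposited read counts divided by 1 size factor per library (a depth-scaled signal), with columns of their own male against female comparison, which were not used. These normalized counts were whole multiples of 1 step per library for 100% of values within a tolerance of 0.02, so that reads could be recovered. For KO, 6A4, 1A3 and 6A2 the authors deposited raw counts per gene beside their comparisons. The sources used here do not name the aligner, the counter or the strand setting, and 138 further columns of per-sample values were not used. Samples were grouped by the labels, and the 3 libraries of other lines whose titles and descriptions disagree were placed by description and table heading, with their titles and their removal as alternatives chosen after seeing the data.

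The members, gene lists and tests were chosen with earlier results of these data known. Genes with a mean of 10 or more were compared on log2(normalized count + 1) with limma 3.58.1, and slopes were fitted to counts with edgeR 4.0.16 (quasi-likelihood, TMM, CPM minimum 10, Benjamini-Hochberg adjustment). The SE of an edgeR slope was calculated back from the test, as the absolute slope divided by the square root of its F statistic. The self-tests were run on simulated data. No p per gene is given for the 1A0 split. Named genes are list members (those with the highest mean, the largest difference either way, or a pattern given in the text), the 10 largest differences each way among non-overlapping genes, and S100a8, S100a9, Xist and Ddx3y. Folds against a group with no read use a floor of 3 reads per library, and ratios on 1 to 3 reads carry exact binomial 95% intervals. Libraries of 1 line differed far beyond counting noise (chi-square per degree of freedom of 9.45 or more for every pair), so none was a repeat. P-values measure the spread between libraries. Gene positions are from GENCODE vM21.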

Additional observations from a re-analysis of the deposited data

Results flagged for a closer look

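Library totals and the 10 largest differences each way were examined in both groups of 4, 42 sets in all, for a library far from the other 3. The score and its genes, which chose the groups, were left out. Chance marks about 1 set in 20, and 5 were marked. Female 4 had no read of Hdc (0), where the other 3 held 81.5 to 154. Male 4 stood above the other poor libraries in Ngp (0.591, a single read) and Stfa2l1 (1.77, 3 reads). Among the rich libraries female 3 stood below the 3 males in Ltb (23.9 against 186 or more), and male 3 alone held reads of Atl3 (1.74, 2 reads).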

How the results depend on the processing

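For the 1A0 split, genes higher in the model numbered 63 with sex as a covariate and 42 with the replicate block, and genes lower 14 with DESeq2, 0 with sex and 4 with the replicate block. Between male and female libraries of one number, with the mean of each sex taken off, the correlations were -0.086, -0.027, 0.083 and 0.25. These are too few to decide whether the numbers pair mice. Non-overlapping genes higher numbered 193 at a minimum of 50, and lower ones 278 with no minimum, 48 at 50 and 285 with equal totals. Leaving out 1 library gave 84 (without male 3, and 93 without male 2) to 172 higher and 0 (without female 4, and 1 without male 2 or male 4) to 4 lower in the model, and 390 to 513 higher and 252 to 324 lower without overlap, where 4 against 3 libraries overlap less easily by construction.

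For the slope, rising genes numbered 83 at a CPM minimum of 50, 79 in KO, 74 in 6A4, 36 in 1A3 and 2 in 6A2 alone. Falling genes numbered 25 with no minimum, 5 at 50, 23 with DESeq2, 26 in KO, 3 in 6A4, 0 in 1A3 and 0 in 6A2. Leaving out 1 library gave 132 to 180 rising and 4 to 19 falling, where leaving out KO 1 or 8, 6A4 3, 4 or 7, or 1A3 1, 3, 5 or 7 gave 4 to 7 and 6A4 2 gave 19. Of the 1A0 genes higher without overlap, 60 rose at 50, 63 in KO, 58 in 6A4, 30 in 1A3 and 1 in 6A2, and of those lower 0, 0, 1, 0 and 0 fell, or 1 to 2 with 1 library left out. With line by title, chosen after seeing the data, rising and falling genes numbered 20 and 6 in KO, 110 and 2 in 6A4 and 36 and 0 in 1A3, of the 1A0 genes 3, 79 and 30 rose and 0, 1 and 0 fell, and without the 3 libraries whose labels disagree 117 rose, 1 fell and 0 of the lower genes fell. Of 57 called genes of the lists, 43 held in every alternative; most were lost without 6A4 3 (10), KO 8 or 1A3 3 (9 each), 6A4 4 or 1A3 5 (8 each) and the 3 libraries (12). The smaller fits hold fewer genes or libraries. Other causes were not tested. No other count of genes moved by over 1.5 times. Of 1A0 libraries, the 539368 reads of the shallowest limit genes near a mean of 10.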
